A study of Mus musculus with 8 samples.

Results

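Cajal-Retzius nuclei were picked out of single-nucleus RNA libraries of the mouse hippocampus by 3 requirements on their own counts. A nucleus needed at least 500 detected genes, at least 2 unique molecular identifiers (UMIs, each counting 1 captured RNA molecule) summed over Trp73, Lhx1 and Lhx5, and at least 5 UMIs of Reln. Of 46752 hippocampal nuclei with at least 500 genes, 214 met the rule (0.458%, exact binomial 95% interval 0.399% to 0.523%). The whole series held 108519 such nuclei. The animals were C57BL/6JN mice with no transgene or drug named in the labels, aged 3 months (young) or 21 months (old). Nuclei came from the anterior hippocampus, and each library mixed nuclei of a male and a female mouse of that age. There were 2 young and 2 old hippocampal libraries, and the library was the replicate. Since nothing in the labels ties a replicate to a culture or a separate experiment beyond its pooled animals, p-values describe the spread between these libraries. In the order young 1, young 2, old 1 and old 2, used for every set of 4 values here, the libraries held 54, 117, 27 and 16 members.

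Cajal-Retzius cells are among the earliest-born neurons of the cortex. They sit in the marginal zone under the pia, secrete the glycoprotein reelin (Reln) and thereby steer the layering of later neurons. Reelin binds the receptors Apoer2 (Lrp8) and Vldlr on its target cells, which relay the signal through the adaptor Dab1. Most of these cells die after birth in the neocortex, while in the hippocampus some persist along the fissure and in the molecular layers of the dentate gyrus. Trp73, a p53-family transcription factor, is needed for their survival in hem-derived populations, and Lhx1 and Lhx5 are LIM-homeodomain factors made in them. They are glutamatergic and use the vesicular transporter Vglut2 (Slc17a6).

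The promoters of the genes that set the population apart are shown because these genes were high together in the same nuclei. In the GENCODE vM21 annotation of GRCm38, Trp73 lies on chromosome 4 from 154056253 to 154140208 on the minus strand, and Reln on chromosome 5 from 21884454 to 22344702 on the minus strand. Ebf3, which encodes a helix-loop-helix factor of the EBF family, lies on chromosome 7 from 137193673 to 137314445 on the minus strand. Each sequence below is the 250 bases before a RefSeq start (GRCm38.p6), and capitals mark the palindromic EBF core CCCNNGGG or the E-box CAGCTG. A downstream and an upstream start are listed for Trp73, which the 3′ counts cannot tell apart.
Trp73 upstream start (chr4:154139876-154140125, minus strand): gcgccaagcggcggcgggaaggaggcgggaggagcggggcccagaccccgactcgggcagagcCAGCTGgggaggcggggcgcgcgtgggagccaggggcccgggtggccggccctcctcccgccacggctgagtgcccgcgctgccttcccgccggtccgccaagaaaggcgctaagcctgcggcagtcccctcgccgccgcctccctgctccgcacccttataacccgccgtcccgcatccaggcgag
Trp73 downstream start (chr4:154097174-154097423, minus strand): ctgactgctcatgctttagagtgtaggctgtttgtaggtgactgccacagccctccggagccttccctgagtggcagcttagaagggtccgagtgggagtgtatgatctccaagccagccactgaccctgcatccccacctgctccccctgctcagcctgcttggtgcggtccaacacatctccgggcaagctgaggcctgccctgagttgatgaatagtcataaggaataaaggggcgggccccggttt
Reln (chr5:22344706-22344955, minus strand): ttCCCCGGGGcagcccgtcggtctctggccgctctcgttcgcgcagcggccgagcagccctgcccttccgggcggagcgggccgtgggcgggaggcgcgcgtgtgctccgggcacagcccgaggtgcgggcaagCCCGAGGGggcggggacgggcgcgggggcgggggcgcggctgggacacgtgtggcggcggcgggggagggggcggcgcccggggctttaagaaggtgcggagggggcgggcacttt
Ebf3 (chr7:137314446-137314695, minus strand): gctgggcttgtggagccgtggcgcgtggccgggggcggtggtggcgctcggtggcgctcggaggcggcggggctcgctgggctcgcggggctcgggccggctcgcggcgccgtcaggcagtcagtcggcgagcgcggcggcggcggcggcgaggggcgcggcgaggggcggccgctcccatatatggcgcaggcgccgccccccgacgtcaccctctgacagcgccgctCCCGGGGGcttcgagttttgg

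Among 32851 RefSeq windows of this length, 11.8% held CCCNNGGG, 13.0% held CAGCTG and 4.84% held the LIM-homeodomain core TAATTA. Of the 25 windows available for the 30 genes with the highest ratio of level in the members to level in the other nuclei, 3 held CCCNNGGG (Reln, Ebf3 and Lhx1os). CAGCTG occurred in 1 of them (Trp73), and TAATTA in 1 (Tmem163). A match describes letters and not a bound site. Lhx5 and Ndnf had no entry among the promoters.

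Before the results, the composition of the 214 members needs stating, because the rule drew together nuclei of more than 1 kind. All hippocampal nuclei were clustered on 3000 variable genes into 46 clusters. One cluster of 184 nuclei took 163 of the members (76.2%), namely 49, 85, 19 and 10 by library. The genes of highest fold over its 184 nuclei were Trp73, Reln, Ndnf and Ebf3, and it is called Cajal-Retzius-like from Trp73, Reln and Lhx1. Most of its nuclei were chosen by these same genes, so their place at the top is a description and no independent support for the name. The other 21 nuclei of that cluster failed the rule and were led by Reln, Ndnf, Pik3c2g and Ebf3, with Trp73 in the fifth place.

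The 163 nuclei in the Cajal-Retzius-like cluster carried glutamatergic transcripts and few GABAergic ones, and 147 of them had no UMI of Gad1 or Gad2. Summed over their 972740 UMIs they held 763 UMIs of Trp73, 136 of Lhx1, 36 of Lhx5, 9295 of Reln, 1464 of Ndnf and 112 of Slc17a6. Gad1 and Gad2, the enzymes that make GABA, came to 12 and 6 UMIs, and Otx2 to 0, which allows up to 3.08 CPM (a gene's UMIs scaled to a common total of UMIs in each sum).

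The remaining 51 members lay outside that cluster. A group of 26 (2, 16, 4 and 4 by library) fell in a cluster of 142 nuclei led by Otx2os1, L3mbtl4, Chrnb3 and Otx2. In these 26 nuclei Trp73 was at 0 of 457895 UMIs (up to 6.55 CPM), Lhx1 had 43 UMIs, Lhx5 had 19, and Gad1 and Gad2 stood at 314 and 349 CPM. They entered the rule through Lhx1 and Lhx5. The other 25 (3, 16, 4 and 2) were scattered over 12 clusters and had a median of 27192 UMIs per nucleus, against 4594 in the Cajal-Retzius-like cluster. Their first 10 genes included Trp73, Reln, Lhx1 and Ndnf. Of these 25 nuclei 16 held UMIs of Trp73, and 9 held none of Gad1 or Gad2. A single young 1 barcode of 304015 UMIs and 13346 genes held 50.2% of the UMIs of all members in its library, and Scrublet called it a doublet. The Cajal-Retzius-like cluster held 39.98% of all member UMIs. Counts of age calls are therefore given for the rule and for the 163 members in the cluster.

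**Figure D1:**
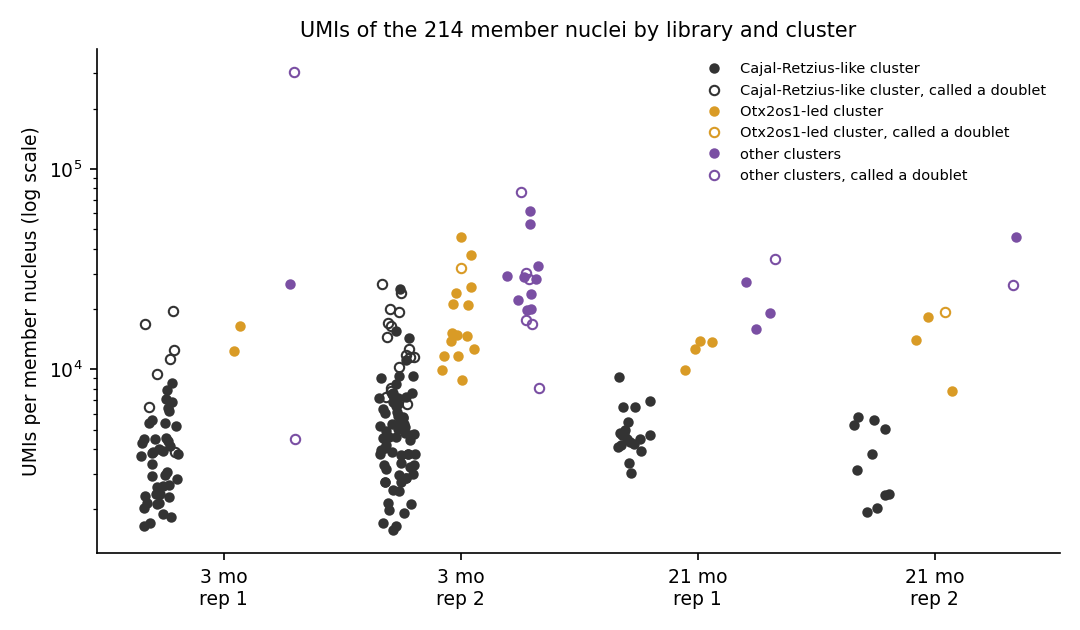
UMIs per nucleus (vertical axis, log scale) of the 214 members in each hippocampal library, coloured by the cluster each fell in; open points were called doublets. The members in the Cajal-Retzius-like cluster have a median of 4594 UMIs, and a single young point of 304015 UMIs stands above all others.

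The threshold cut through a continuous range. At the boundary, 59 members had exactly 2 UMIs of the 3 transcription factors, of which 30 lay in the Cajal-Retzius-like cluster, and 75 nuclei with 1 such UMI and enough Reln stayed outside, of which 16 lay in it. Fewer nuclei lay near the Reln limit, since 14 members had 5 to 9 Reln UMIs and 10 nuclei with 3 or 4 stayed outside. Scrublet called 35 of the members doublets (9, 23, 1 and 2), 23 of them in the cluster and all 23 in young libraries. The number called in a library was set by its count of barcodes, at 9.19%, 16.2%, 7.35% and 5.30% of barcodes. In the cluster 7 of 49, 16 of 85, 0 of 19 and 0 of 10 members were called. Hippocampal libraries shared 23 to 77 barcodes per pair, none of them among members. The hippocampal libraries held between 67205436 and 234811422 UMIs in total, with 7910 to 9487 UMIs in the median nucleus.

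Reln, the ligand that names the pathway, reached 11034, 8309, 13075 and 11085 CPM in the 163 members of the cluster. Both old libraries were above both young ones, the closest pair being 11034 and 11085, while in members with fewer than 6000 UMIs the values were 12476, 12053, 11798 and 11085 CPM and both young libraries were above both old ones. Reln-matched interneurons (450 nuclei with at least 5 UMIs of Reln, at least 5 of Gad1 and Gad2 together and none of the 3 factors) held 1348 ± 221 CPM (SD, n = 4 libraries), and all other hippocampal nuclei held 34.7 ± 2.71. These levels and all below describe the members with no test, since the rule or the clustering chose them by their expression. CPM of different genes are not corrected for transcript length, so each gene is compared with itself.

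Of the factors in the rule, whose presence at both ages the rule itself fixed, Trp73 stood at 981, 646, 1058 and 1047 CPM in the members of the cluster and at 0.819 ± 0.175 CPM in all other nuclei. Lhx1 (chromosome 11, 84518284 to 84525535, minus strand) stood at 128, 142, 148 and 161 CPM, a narrow range over the 4 libraries. Lhx5 (chromosome 5, 120431699 to 120441223, plus strand) was much scarcer and uneven, with 37.2, 31.7, 10.6 and 188 CPM from 36 UMIs in all. In old 2 a single UMI equals 26.8 CPM, so low levels there rest on few molecules.

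Some factors outside the rule were also high in the members of the cluster. Ebf3 was measured at 443, 464, 783 and 913 CPM in the members of the cluster, 4.82 ± 3.37 CPM in the Reln-matched interneurons and 3.55 ± 0.849 CPM in all other nuclei (n = 4 libraries each). Both old libraries were above both young ones, but with fewer than 6000 UMIs per nucleus the values were 497, 838, 672 and 913 CPM and overlapped. Nhlh2, a helix-loop-helix factor of early neurons, averaged 104 ± 25.9 CPM against 0.249 ± 0.0556 in the other nuclei. Nr2f2 averaged 191 ± 64.0 against 6.88 ± 1.96 CPM, and Tbr1, a T-box factor of glutamatergic neurons, 42.7 ± 8.36 against 4.78 ± 0.563. Eomes was nearly silent, with 1 UMI in all 163 nuclei. Of the 25 transcription factors listed for these cells, 17 were higher on average in the members of the cluster than in the other nuclei, 11 of them in all 4 libraries. Of the 5 factors with enough counts to be tested in the cluster, all 5 averaged higher, as did 66.4% of all genes tested there. Passing that filter depends on the level in the members, so nothing is read from these shares.

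Some cell-surface and transmitter genes were also high in the members of the cluster. Of 20 listed surface and other markers, 13 averaged higher there than in the other nuclei, 7 of them in all 4 libraries. Of the 10 tested there, 8 averaged higher, beside 66.4% of all genes tested. Ndnf (chromosome 6, 65671590 to 65712326, plus strand), a secreted neuron-derived factor, reached 1879, 1176, 2126 and 2791 CPM. Its level was 101 ± 25.0 CPM in the Reln-matched interneurons, a class that also contains Ndnf-expressing cells, and 6.17 ± 1.39 in all other nuclei. Slc17a6 stood at 74.5, 120, 180 and 134 CPM against 10.97 ± 1.20 CPM in the other nuclei, while Slc17a7, the Vglut1 transporter of pyramidal and granule neurons, stood at 44.8 ± 42.5 against 115 ± 25.8. Cacna2d2, an auxiliary calcium-channel subunit, averaged 619 ± 60.4 CPM against 11.1 ± 1.20. Calb2 (calretinin), a classical marker of the cells in young tissue, was sparse at 53.8, 25.0, 0 and 0 CPM. A count of 0 allows up to 31.7 CPM in old 1 and 80.5 CPM in old 2, so no age difference of Calb2 was detectable at this depth. Cxcr4, the chemokine receptor that guides their tangential migration, had 9 UMIs in all.

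Several genes outside those lists were among the 30 with the highest ratio. Eln (elastin) averaged 591 ± 148 CPM in the members of the cluster against 7.63 ± 3.78 CPM in the other nuclei. Cd274, which encodes the immune checkpoint ligand PD-L1, stood at 141, 117, 95.2 and 322 CPM against 0.966 ± 0.280, and its 125 UMIs came from all 4 libraries. Tmem163, a zinc transporter, averaged 1439 ± 323 against 25.8 ± 2.44 CPM. Dach1 averaged 2194 ± 742 against 39.8 ± 11.1 CPM. The list of 30 was drawn from all 214 members, and Otx2os1, L3mbtl4 and Npsr1 in it came from the Otx2os1-led cluster: in the Cajal-Retzius-like cluster they averaged 13.1, 2.49 and 0.417 CPM. The remaining genes of the 30 were Gm10475, Pik3c2g, Mab21l3, Lhx1os, Gm27199, Shisal2b, Gm29683, B130024G19Rik, Casz1, Hs3st5, Lrig3, Vmn2r1, Cdh4, Gm4681, Gm49027 and Ggt5.

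**Figure D2:**
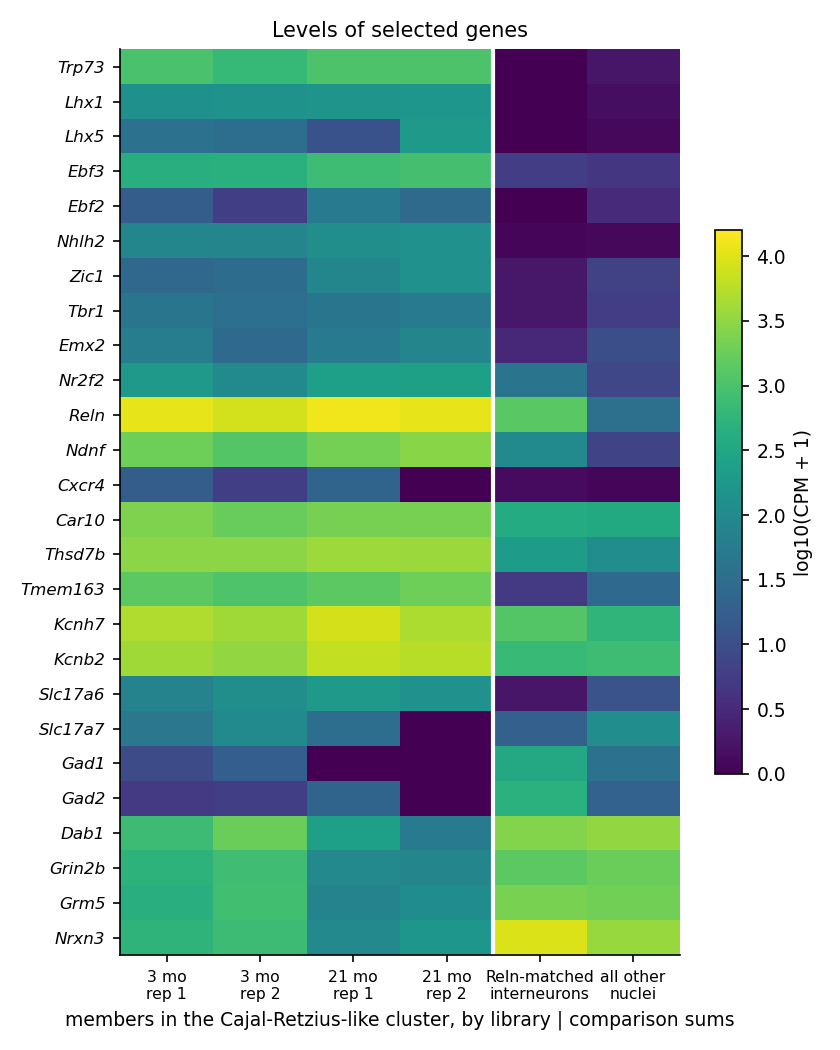
Colour gives the level of named genes as log10(CPM + 1) in the members of the Cajal-Retzius-like cluster of each library (left of the white line) and the mean over 4 libraries of the comparison sums (right). Reln lies between 8309 and 13075 CPM in the members and at 34.7 CPM in all other nuclei, while Dab1 and Nrxn3 are lower in the members than in both comparison sums.

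Of the reelin receptors, few UMIs were counted in the members of the cluster. Lrp8 stood at 37.2, 50.1, 31.7 and 0 CPM, against 61.4 ± 6.51 in the Reln-matched interneurons, and Vldlr at 24.8, 16.7, 0 and 0 CPM, against 25.5 ± 7.59. With the limits that a count of 0 allows in the old libraries, a lower receptor level was not detectable. The adaptor Dab1 stood at 745, 1777, 233 and 53.7 CPM, where the Reln-matched interneurons held 2600 ± 143 and all other nuclei 3317 ± 201. In members of the cluster with fewer than 6000 UMIs, Dab1 was 155, 254, 259 and 53.7 CPM. Nectin1, an adhesion molecule through which these cells contact migrating neurons, averaged 106 ± 57.1 against 23.4 ± 0.763 CPM, and Efnb2, an ephrin that binds reelin, 59.6 ± 28.7 against 11.6 ± 4.21. Of the 43 pathway genes in the files, 24 averaged higher in the members of the cluster than in the other nuclei and 9 of those did so in all 4 libraries. Of the 17 pathway genes with enough counts to be tested in the cluster, 13 averaged higher (76.5%), beside 66.4% of all genes tested there. Nothing is read from these shares.

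Among p53-family genes and targets, Trp73 stood apart, while Trp63, Cdkn1a, Pmaip1, Gadd45a and Ngfr had no UMI in the cluster's members (up to 3.08 CPM each). Sesn1, a stress-inducible p53 target, averaged 293 ± 97.4 CPM against 127 ± 6.15 in the other nuclei, Mdm4 averaged 202 ± 58.8 against 119 ± 5.94 and Mdm2 averaged 92.0 ± 24.7 against 37.1 ± 1.55. In the apoptosis machinery, Diablo, which relieves caspase inhibition, averaged 130 ± 49.4 against 8.71 ± 1.05 CPM. Diablo (chromosome 5, 123509765 to 123524176) overlaps Gm49027 (123512082 to 123525488) on the minus strand, and which gene the reads came from was not tested. Of 26 listed genes 18 averaged higher in the cluster's members, 4 of them in all 4 libraries, while Bmf and Casp8 had no UMI. All 4 genes tested there averaged higher, beside 66.4% of all genes tested.

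Most ion channel genes were not above the other nuclei. Of the 29 excitability channel genes, 11 averaged higher in the members of the cluster, and of the 19 with enough counts to be tested 8 did (42.1%), beside 66.4% of all genes tested. Kcnh7 and Kcnb2, which encode potassium channels, were among the 11, Kcnh7 at 4917, 3944, 8347 and 4751 CPM against 553 ± 165, and Kcnb2 at 3924, 3335, 6400 and 5609 CPM against 794 ± 52.9. Also high were the axon guidance receptor gene Robo2 at 5429 ± 1713 CPM against 719 ± 40.1, Thsd7b at 3330 ± 479 against 112 ± 23.5 and Car10 at 2120 ± 300 against 360 ± 42.4. Nrxn3, a presynaptic adhesion gene, was low at 389 ± 318 CPM against 3557 ± 466 in all other nuclei and 9635 ± 1292 in the Reln-matched interneurons. Of the 25 glutamate receptor genes, 3 averaged higher in the members of the cluster than in the other nuclei. Gria2 remained within reach of the others at 1240 ± 222 against 1631 ± 198 CPM, while the NMDA subunit Grin2b was 375 ± 353 against 1799 ± 119.

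The share of nuclei that met the rule was lower in the old libraries, and every library of one age lay outside the range of the other. Members made up 0.490% (interval 0.368% to 0.638%) and 0.580% (0.480% to 0.695%) of nuclei in the young libraries and 0.300% (0.198% to 0.436%) and 0.244% (0.140% to 0.396%) in the old ones. Intervals are exact binomial at 95% and cover counting error only. The means were 0.535% ± 0.0640 and 0.272% ± 0.0396 (SD, n = 2 libraries each), a ratio of 1.97. The exact two-sided permutation test gave p = 0.333, the smallest value that 2 libraries against 2 allow, so the design cannot pass 0.05.

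In the Cajal-Retzius-like cluster the shares of members were 0.444%, 0.421%, 0.211% and 0.153%, a ratio of 2.38 between the mean shares. Members outside that cluster did not follow: their mean shares were 0.102% and 0.0902%, and the libraries overlapped. Counted per 100 Reln-matched interneurons, which share the Reln part of the rule, the members numbered 55.1, 52.2, 36.5 and 29.6, a ratio of 1.62.

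The share was also counted with deep nuclei set aside. Of the 163 members in the cluster, 53 had at least 6000 UMIs (12, 37, 4 and 0), and the members of the cluster under that limit made up mean shares of all nuclei of 0.287% ± 0.0689 and 0.160% ± 0.00999, a ratio of 1.80. When every hippocampal nucleus was thinned to 3000 UMIs and the shallower 1435, 2161, 1069 and 839 nuclei were left out, 24, 49, 16 and 6 nuclei met the rule. The thinned shares were 0.250%, 0.272%, 0.202% and 0.105%, a ratio of 1.70 between the means. The young libraries stayed above the old ones in each of these counts except that of members outside the cluster.

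Each library held 1 male and 1 female, and nuclei were assigned to them by Xist and 4 Y-linked transcripts. Of the members, 72 were assigned to females, 73 to males and 69 to neither. By animal, young females had 0.329% and 0.397%, young males 0.695% and 0.620%, old females 0.406% and 0.185%, and old males 0.175% and 0.230%. The first old female exceeded both young females, so the ages overlapped (0.510% ± 0.175 against 0.249% ± 0.107, SD, n = 4 animals each; exact two-sided permutation p = 0.0857). In the Cajal-Retzius-like cluster the animals did not overlap, with 0.309% to 0.639% in the young and 0.111% to 0.271% in the old, and the same exact permutation test gave p = 0.0286, the smallest value that 4 against 4 allow. This count was chosen after the data were seen, and the 2 animals of a library share its preparation, so that they are not fully independent.

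**Figure D3:**
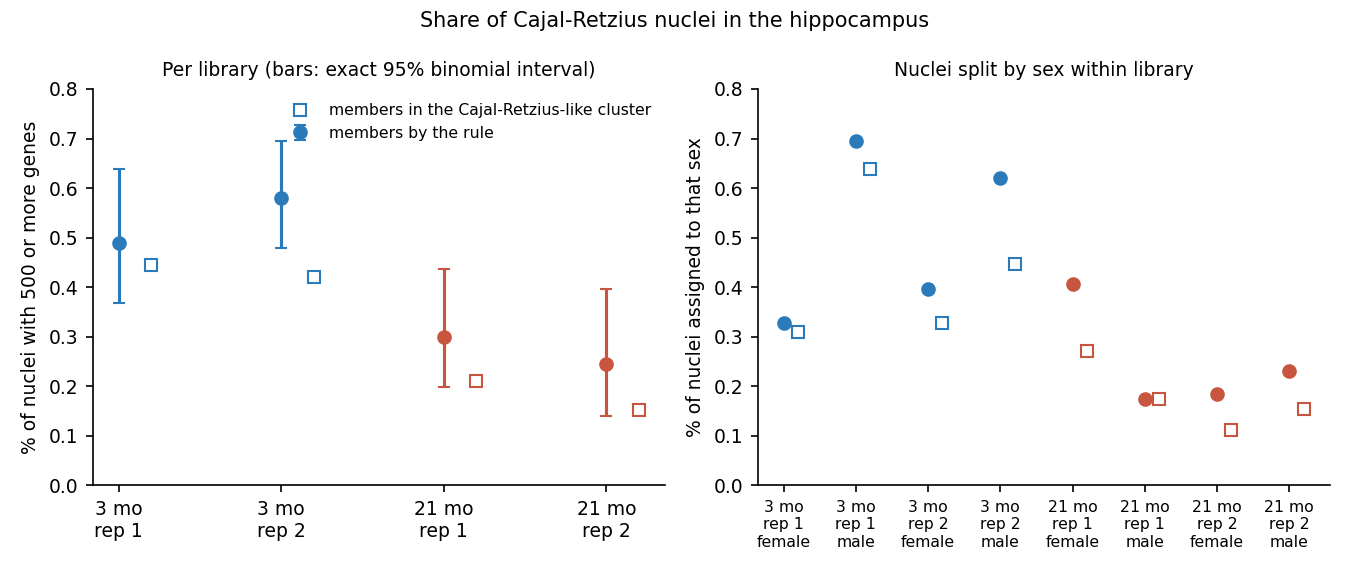
Left, percent of nuclei in each hippocampal library that met the rule (filled, with exact binomial 95% intervals) and that also lay in the Cajal-Retzius-like cluster (open); right, the same split by sex within each library, young in blue and old in red. The young libraries stand at 0.490% and 0.580% and the old ones at 0.300% and 0.244%, while by sex the first old female (0.406%) exceeds both young females.

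Median UMIs per member were 4058, 7291, 4996 and 5422, and the ages overlapped. The difference of the means was −465.5 UMIs (exact two-sided permutation p = 1). Without called doublets it was 189 UMIs, and without young 2 it was 1151 UMIs.

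In counts summed per library over the 214 members, 61 of 6625 genes tested (0.921%) differed between ages at an adjusted p below 0.05 in the edgeR quasi-likelihood test with Benjamini-Hochberg adjustment. They were 9 genes higher (0.136%) and 52 lower (0.785%) in the old. None was called after the 1 barcode of 304015 UMIs was left out (0 of 4840 genes, edgeR; 295 at an unadjusted p below 0.05). Fold changes of named genes still tested kept their direction, most with like size, such as Wls from 2.66 to 2.48, Tmtc2 from 1.90 to 1.88 and Gm2164 from −3.97 to −3.77 on the log2 scale. Without called doublets the same test also made no call (158 at an unadjusted p below 0.05), and with 16 nuclei drawn from each library it made none (288 at an unadjusted p below 0.05).

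The 9 genes higher in the old were Id3, Ranbp3l, Plce1, Wls, Slc6a11, Tmtc2, 9530026P05Rik, Gm15155 and Pard3b. Wls, which carries Wnt proteins to the surface for secretion, stood at 9.91, 25.4, 149 and 107 CPM (log2 fold change 2.66, SE 0.41, edgeR adjusted p = 0.018). Both old libraries were above both young ones, since only genes without overlap were named here. Its mean level was 17.9 CPM in the members of the Cajal-Retzius-like cluster and 101 CPM in the members outside it. All 9 averaged higher in the members outside the cluster than in those inside. How many of all genes tested did so is not given here. The members outside made up 5 of 54, 32 of 117, 8 of 27 and 6 of 16 members. By UMIs, which these sums count, the members inside the cluster held 39.9%, 42.3%, 39.0% and 22.1%. The part of the members outside in these calls was not tested. The 5 genes of lowest p among those higher in the old without passing were Slc6a20a, Tcerg1l, B130024G19Rik and Lrmda, at an edgeR adjusted p of 0.0518, and Adamts18, at 0.0522.

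Of the 52 genes lower in the old, the 10 of largest change were Pde11a, Ankrd33b, Gm20319, Prr5l, Icam5, Gm2164, Pkp2, Prox1, Hs3st4 and Ptk2b. Prox1, the factor that specifies dentate granule neurons, stood at 139, 116, 12.4 and 11.9 CPM (log2 fold change −3.41, SE 0.45, edgeR adjusted p = 0.0147), and 75 of its 84 UMIs in young 1 came from the barcode of 304015 UMIs. Ptk2b, a calcium-dependent tyrosine kinase of forebrain neurons, stood at 264, 174, 33.0 and 23.7 CPM (−2.95, SE 0.40, edgeR adjusted p = 0.0147), with 134 of 160 young 1 UMIs in that barcode. Both genes had no overlap between ages, which naming them here required. Hs3st4, a heparan sulfate sulfotransferase, stood at 216, 187, 12.4 and 41.5 CPM, but its log2 fold change was 0.44 in the Cajal-Retzius-like cluster (edgeR adjusted p = 0.941). In 7 of the 10 the old libraries together held 3 UMIs or fewer. Prr5l, an oligodendrocyte gene with 2 old UMIs, was 18.2-fold higher in the young (exact interval 4.96 to 151, counting error only). Pde11a, with none, was at least 4.88-fold higher, taking 3 counts over both old libraries as the floor. In young 1 the barcode of 304015 UMIs held 16 of 16 UMIs of Pde11a and 37 of 65 of Prr5l. Pde11a averaged 0.834 CPM in the members of the cluster and 27.5 CPM in those outside it. All 52 genes averaged lower in the members of the cluster than in the other hippocampal nuclei, as did 41.5% of the genes tested. That average includes the old libraries, whose low values made the calls, so nothing is read from these shares.

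Within the 163 members of the Cajal-Retzius-like cluster, 173 of 3339 genes (5.18%) passed the edgeR test, 10 higher (0.299%) and 163 lower (4.88%) in the old. In all 184 nuclei of the cluster 144 genes were called, with 52 to 217 when 1 library was left out (52 without young 2), and sums per animal of the 163 with sex as a covariate gave 27 of 928 genes. The 173 shared 28 genes with the 61 called by the rule (45.9% of those and 16.2% of the 173), all in the same direction. The genes of lowest p were lower in the old and abundant in the other hippocampal nuclei. Kalrn, a guanine exchange factor of dendritic spines, stood at 613, 1113, 42.3 and 53.7 CPM, against 2257 CPM in the other nuclei (log2 fold change −4.33, SE 0.54, edgeR adjusted p = 3.88e-05). Lrrtm4, a postsynaptic adhesion protein of dentate granule cells (chromosome 6, 80018877 to 80810143, plus strand), stood at 1358, 2833, 254 and 268 CPM, with 5638 CPM in the other nuclei. Of the 163 lower genes, 162 averaged lower in the cluster's members than in the other hippocampal nuclei, as did 33.6% of the genes tested. This average includes the old libraries, whose low values made the calls, so nothing is read from the 2 shares.

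The 5 genes of lowest p were concentrated in few young nuclei. They were chosen by the age test on these same nuclei, so their scarcity in old nuclei follows from that choice. The counts below describe only where their UMIs lay. Kalrn, Csmd3, Celf2, Lrrtm4 and Dlgap1 together exceeded 1% of a nucleus's UMIs in 4 of 49 and 18 of 85 young members of the cluster and in 0 of 19 and 0 of 10 old ones. Those young nuclei held at least 6472 and 6739 UMIs each, Scrublet called 3 and 14 of them doublets, and they made up 21.3% and 42.7% of the UMIs of their library's sum. The median nucleus had 0.100%, 0.277%, 0.0773% and 0.0610% of its UMIs in the 5 genes. Summed markers of some other cell types were higher in both young libraries than in both old ones, an order that was not tested. In these sums 3 UMIs equal 31.7 CPM in old 1 and 80.5 CPM in old 2. The old values of the microglial and neuroblast markers below thus rest on 3 UMIs or fewer each. A 0 in old 2 allows up to 80.5 CPM, above the 78.4 CPM of the neuroblast markers in young 2. The 10 oligodendrocyte markers stood at 753, 542, 148 and 215 CPM, the 13 interneuron markers at 538, 936, 286 and 134 CPM, the astrocyte markers at 1043, 766, 603 and 698 CPM, the microglial markers at 103, 98.4, 31.7 and 53.7 CPM and the neuroblast markers at 103, 78.4, 21.2 and 0 CPM. Others went the opposite way. Pyramidal neuron markers stood at 2463, 2239, 3417 and 2791 CPM and leptomeningeal markers at 219, 122, 264 and 322 CPM. In all other hippocampal nuclei both stood lower, at 1981, 1600, 1444 and 1644 CPM and at 114, 61.8, 186 and 84.2 CPM. In each of these 2 lists 4 of 10 genes averaged higher in the cluster's members than in the other nuclei. Whether these 2 sums came from other cells was not tested. Choroid plexus and ependymal markers stood at 33.1, 25.0, 52.9 and 80.5 CPM, the last value being 3 UMIs. The granule neuron markers, at 1949, 2940, 1830 and 1959 CPM, overlapped between ages, as did those of oligodendrocyte precursors and vascular cells. Of the 4 oligodendrocyte markers tested, 3 were called lower in the old (Mbp, St18 and Prr5l), beside 4.88% of all genes tested there. No oligodendrocyte marker was at 0 over the 163 nuclei. What remained of the 173 calls without nuclei of 6000 or more UMIs, or without called doublets, was measured directly.

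**Figure D4:**
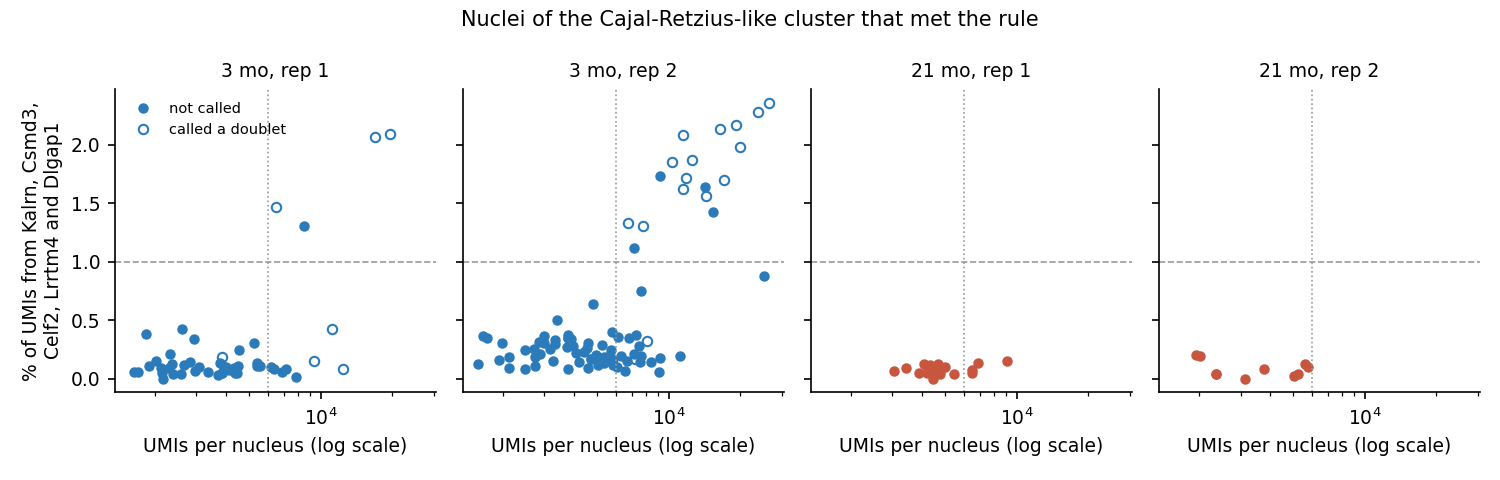
Percent of each nucleus's UMIs in Kalrn, Csmd3, Celf2, Lrrtm4 and Dlgap1 (vertical axis) against its total UMIs (log scale) for the 163 members of the Cajal-Retzius-like cluster, 1 panel per library; open points were called doublets and the lines mark 1% and 6000 UMIs. The nuclei above 1% are 4 and 18 in the young libraries and 0 in the old ones.

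In the 110 members of the cluster with fewer than 6000 UMIs (37, 48, 15 and 10), 3 of 1926 genes (0.156%) passed the edgeR test, all lower in the old. Their oligodendrocyte markers summed to 220, 270, 183 and 215 CPM, and their interneuron markers to 188, 331, 275 and 134 CPM, with the ages overlapping in the interneuron markers and both young libraries above both old ones in the oligodendrocyte markers. Both young libraries were also above both old ones in the microglial markers, at 73.4, 93.7, 45.8 and 53.7 CPM. The neuroblast markers had the same order, at 122, 99.2, 30.5 and 0 CPM. In old 2 these 2 sums rest on 2 UMIs or fewer, and a 0 there allows up to 80.5 CPM. Granule neuron markers, at 1345, 1731, 1938 and 1959 CPM, and choroid plexus and ependymal markers, at 40.8, 22.04, 76.3 and 80.5 CPM, were higher in both old libraries, and the other 5 lists overlapped. The part of these markers in the 3 calls was not tested. Without called doublets, 1 of 2650 genes in the 163 members passed, Dpp10, a potassium-channel subunit that was lower in the old. Of the 173 genes 107 were still tested without doublets, all 107 with a log2 fold change of the same sign, and their median log2 fold change went from −2.36 to −1.58. The 173 were called on sums that hold these same nuclei, so nothing is read from the shared sign. The rest of the 173 did not reach the test without doublets. Among genes singled out after their values were seen, Fbxl7 went from −4.43 to −4.46 (edgeR adjusted p = 0.0861), Nrxn3 from −2.57 to −2.56 (edgeR adjusted p = 0.159), Csmd3 from −4.68 to −3.62 (edgeR adjusted p = 0.433) and Kalrn from −4.33 to −3.12 (edgeR adjusted p = 0.094). Lrrtm4 stood at 563, 931, 229 and 268 CPM in the nuclei under 6000 UMIs (log2 fold change −1.70, SE 0.35, edgeR adjusted p = 0.0400). Nkain2 (chromosome 10, 31689310 to 32890462, minus strand), a membrane protein that interacts with the sodium pump, stood at 383, 380, 107 and 53.7 CPM (−2.19, SE 0.45, edgeR adjusted p = 0.0400). Fbxl7 (chromosome 15, 26540459 to 26895580, minus strand), a ubiquitin-ligase subunit, stood at 212, 413, 0 and 53.7 CPM from 26, 75, 0 and 2 UMIs, 17.1-fold higher in the young (exact interval 4.60 to 143, counting error only; edgeR adjusted p = 0.0400). For each of the 3, both young libraries were above both old ones. Without old 1 the edgeR test called 16 genes (3 higher), without old 2 it called 20 (6 higher), and with the replicate block 7 (2 higher). DESeq2 called none of the 3 (0 genes, 35 at an unadjusted p below 0.05), and edgeR called none without young 2 (0 genes, 41 at an unadjusted p below 0.05).

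The genes that identify the cells showed no call between ages. Trp73, Lhx1 and Reln are in the rule, which sets the same floor at both ages, so their changes are values only: the log2 fold changes under 6000 UMIs were −0.28 (SE 0.23), 0.45 (SE 0.46) and −0.17 (SE 0.17). Ndnf, which the rule did not use, changed by 0.07 (SE 0.22, edgeR adjusted p = 0.992) and Ebf3 by 0.12 (SE 0.29, edgeR adjusted p = 0.992). Of the transcription factors, 6 were tested over all members and none was called, with a median log2 fold change of 0.67 beside 0.00 over all genes tested. Of the surface markers, 12 were tested, none was called and the median was 0.26. Over all genes tested there, 0.921% were called. Under 6000 UMIs the medians were 0.20 for 4 tested factors and 0.07 for 9 tested surface markers, beside −0.01 over all genes, and none was called. With a median of 0.08, none of 28 tested reelin pathway genes was called over all members. In the cluster 1 of 17 (Dab1) was called lower, beside 4.88% of all genes tested there. Dab1 changed by −2.99 (SE 0.51, edgeR adjusted p = 0.00118) there and by −0.29 (SE 0.48, edgeR adjusted p = 0.980) under 6000 UMIs.

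Survival genes were thinly measured. Over all members, none of 5 tested p53-family genes (median 0.14) and none of 6 tested apoptosis genes was called, beside 0.921% of all genes tested. In the cluster 1 of 4 tested apoptosis genes was called higher in the old, beside 0.299% of all genes tested there. With 4 genes tested, nothing is read from this count. The gene was Bcl2, which blocks mitochondrial cell death. Bcl2 stood at 12.4, 16.7, 74.1 and 107 CPM (log2 fold change 2.33, SE 0.62, edgeR adjusted p = 0.0200). Both old libraries were above both young ones, from 24 UMIs in all. Under 6000 UMIs Bcl2 stood at 16.3, 22.04, 107 and 107 CPM and did not pass (2.30, SE 0.56, edgeR adjusted p = 0.143), nor did it over all members (1.47, SE 0.36, edgeR adjusted p = 0.0833). The 9 other genes higher in the cluster were 2610307P16Rik, Adcy8, Col11a1, Ube2j2, E130114P18Rik, Cpm, Nxn, Kcnc2 and Kctd8. Adcy8, a calcium-stimulated adenylyl cyclase, stood at 906, 726, 2105 and 2281 CPM (1.32, SE 0.30, edgeR adjusted p = 0.00597), and Kcnc2, a fast potassium channel, at 1134, 878, 2116 and 2281 CPM (1.03, SE 0.30, edgeR adjusted p = 0.0402). Both genes showed no overlap between ages, and neither passed under 6000 UMIs.

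Receptor and synapse genes carried most of the listed calls in the cluster. Of the glutamate receptors, 7 of 17 tested were lower in the old, among them Grin2a, Grin2b, Grik2 and Grm5, none was higher and the median log2 fold change was −1.17, beside −0.02 over all genes tested, of which 4.88% were called lower. Grin2a stood at 786, 1690, 116 and 161 CPM in all members of the cluster and at 81.5, 248, 91.6 and 161 CPM under 6000 UMIs, where the ages overlapped. Under that limit none of 13 tested glutamate receptors was called and the median was −0.62, beside −0.01 over all genes tested. Of the synapse organisers, 6 of 14 were lower (Nrxn3, Nlgn1, Lrrtm4, Cadm1, Cadm2 and Il1rapl1; median −1.15) and 1 of 13 (Lrrtm4) under 6000 UMIs (median −0.22). Of the GABA and glycine receptor genes, 2 of 10 were lower (Gabra2 and Gabrb1) and none of 9 under 6000 UMIs (median −0.12). Of the excitability channels, 3 of 19 were lower, among them Cacna1e and Kcnd2, and 1 higher (Kcnc2), and none of 14 under 6000 UMIs (median 0.02). Over all 214 members these 4 lists held 0 of 20, 0 of 20, 1 of 15 (Gabra4, lower) and 1 of 25 (Cacna1e, lower) calls. Over all genes tested there, 0.921% were called.

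**Figure D5:**
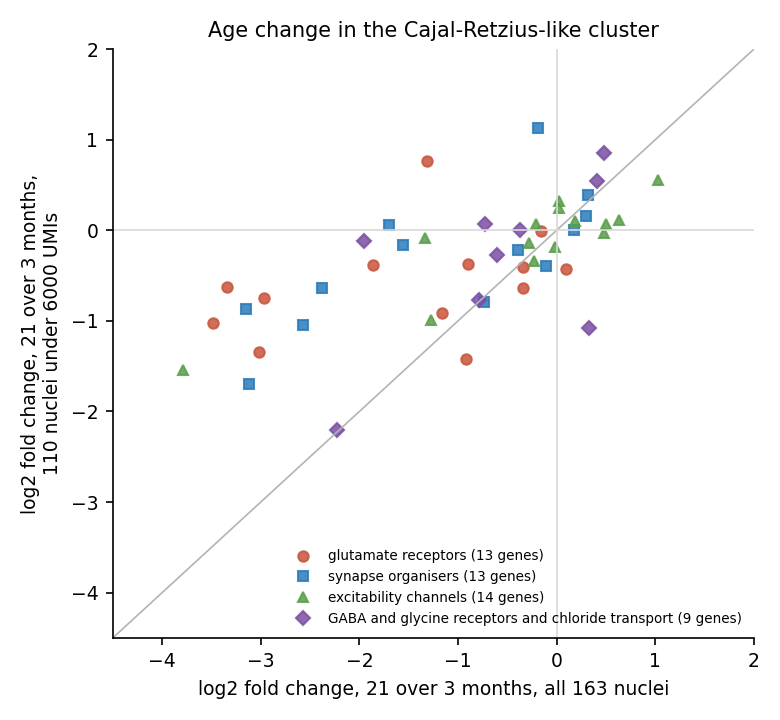
Log2 fold change between ages of the genes of 4 lists in all 163 members of the Cajal-Retzius-like cluster (horizontal axis) and in the 110 with fewer than 6000 UMIs (vertical axis), for genes tested in both; the diagonal marks equal change. Lrrtm4 lies at −3.12 and −1.70, and the glutamate receptors have a median of −0.62 on the vertical axis.

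Immune and stress genes were mostly below what these sums can measure. Of 28 interferon response genes 11 had no UMI in the cluster's members (up to 3.08 CPM each), and 1 reached the test over all members without passing. None of the 14 MHC class I or 10 complement genes reached it. Of the chaperones, none of 18 tested was called over all members (median −0.20), none of 11 in the cluster (median −0.39) and none of 6 under 6000 UMIs (median −0.71, beside −0.01 over all genes tested). Under that limit the 22 chaperone genes summed to 2104, 2800, 1557 and 1369 CPM, both young libraries above both old ones. All other hippocampal nuclei had the same order, at 1340, 1579, 1137 and 1183 CPM. Of the immediate early genes, none of 2 tested was called over all members. Over all genes tested, 0.921% were called over all members, 5.18% in the cluster and 0.156% under 6000 UMIs.

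Markers of other cell types were also among the calls over all members, where 0.921% of all genes tested were called. Besides 3 of 4 tested oligodendrocyte markers (Mbp, St18 and Prr5l), these were 2 of 7 granule neuron markers (Prox1 and Trpc6), 1 of 5 pyramidal markers (Pex5l) and 1 of 7 interneuron markers (Prox1), all lower in the old, and 1 of 4 leptomeningeal markers (Ranbp3l), higher. No call fell among tested astrocyte, oligodendrocyte precursor, microglial, vascular, choroid plexus and ependymal or neuroblast markers (5, 1, 2, 1, 2 and 2 genes tested). In old 2 the summed vascular markers of all members reached 1679 CPM, against 26.1 to 103 CPM in the other libraries and 53.7 CPM in the old 2 members of the Cajal-Retzius-like cluster.

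Whether age acted differently on these nuclei than on others was tested directly, as a class by age term with the library as a block. Against the Reln-matched interneurons the edgeR test called 0 of 11501 genes over all members (0%; 653 at an unadjusted p below 0.05). With the replicate block it called 79 genes, and with no filter on low counts 81. For the 163 members in the cluster it called 142 of 10240 genes, all with a lower change in the members, and 11 without called doublets. Against all other hippocampal nuclei it called 219 of 19323 genes (1.13%), 40 with a higher (0.207%) and 179 with a lower change (0.926%) in the members. St18, an oligodendrocyte transcription factor, had the second lowest p: it stood at 253, 155, 28.9 and 47.5 CPM in the members and at 290, 280, 434 and 465 CPM in the other nuclei (difference −3.25 on the log2 scale, SE 0.42, edgeR adjusted p = 1.46e-10). Prr5l, Mbp, Hs3st4 and Prox1 completed the 5 of lowest p. In the members of the cluster without called doublets none of these 5 passed: St18 differed by −1.68, Prr5l by −4.13 (edgeR adjusted p = 0.284, and 1 for the other 4), and Hs3st4 turned to 0.29. For the 163 members in the cluster the count was 144 of 19101 genes, all lower. The count was 58 without the barcode of 304015 UMIs, 28 without called doublets and 5 for members of the cluster without called doublets.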

How the data were processed

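Single-nucleus 10x v3.1 libraries of hippocampus (4) and caudate putamen (4) were used. The deposited matrices hold raw UMI counts per gene and barcode for 32285 genes. Per the file headers they were made with Cell Ranger 6.1.2 (7 libraries) or 7.0.0 (1), while the submitters' processing notes name Cell Ranger 4.0.0 and mm10. Whether intronic reads were counted is not given in the sources used here. Whether counting used strand is likewise not given, so overlapping genes may share reads.

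Members, the comparison class and the gene lists were chosen with earlier results of these data known. Nuclei were clustered with scanpy 1.11.5 (3000 variable genes, 40 components, 20 neighbours, Leiden resolution 1). Scrublet scored each library, and the top-scoring 0.8% per 1000 barcodes were called doublets (5.30% to 16.2% of barcodes). They were kept, except in the alternatives that leave them out. UMI counts were summed over members per library and tested with edgeR 4.0.16 (TMM, filterByExpr, quasi-likelihood, robust; threshold 0.05 after Benjamini-Hochberg adjustment), which was tested on simulated data first. DESeq2 1.42.0 was an alternative. Shares and medians were compared with exact permutation tests (scipy 1.17.1).

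Genes named for age are those past the threshold without overlap of libraries, up to 10 per direction by fold change, or all with the 5 of lowest p where fewer passed. Genes named for level are the 30 of highest log2 ratio (pseudocount 1 CPM) among those with at least 20 CPM in every library's members. Other genes come from 25 lists, 14 of functions and 11 of other cell types. Genes named within the cluster, and those of the test against other nuclei, were chosen after their values were seen. Other rule thresholds, normalizations, filters, definitions of members and left-out libraries were tried. Definitions by cluster, by the 6000 UMI limit, without the largest barcode and by thinning were added after seeing the data. Replicate numbers did not pair the libraries: only 2 pairs exist and the labels tie no number to a shared batch. Values of some listed genes are not reported here.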

Additional observations from a re-analysis of the deposited data

Results flagged for a closer look

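Between the members and all other hippocampal nuclei, the edgeR class by age term called 219 of 19323 genes (1.13%), as described above. The count depended on the nuclei included. It was 58 without the barcode of most UMIs, 28 without called doublets and 144 for members in the cluster. For members of the cluster without called doublets it was 5 of 18898 genes. With the replicate block it was 216, and with no filter on low counts 197. In caudate putamen libraries, which entered no comparison, 17 of 61767 nuclei met the rule (0.0275%; 8 and 2 young, 6 and 1 old). Those 17 nuclei held 518466 UMIs, among them 35 of Trp73 and 302 of Reln (582 CPM). Lhx1, Lhx5, Ndnf and Slc17a6 were at 0 UMIs in them, which allows up to 5.79 CPM each, and Ebf3 was at 1 UMI. The hippocampal members of the Cajal-Retzius-like cluster held all of these genes. Groups of 2 libraries are too small for a test of single outlying samples.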

How the results depend on the processing

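The lower share in old libraries kept its direction under every alternative run, from −0.308 to −0.218 percentage points with a library left out, −0.190 and −0.336 within replicate numbers 1 and 2 (replicate block), and −0.254 by animal in the cluster, the one setting that passed its test. Median UMIs per member turned: −2082 to 1151 with a library left out, 189 without doublets, and 938 within replicate number 1 (block).

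Against 61 age calls over all members, the counts were 189 with at least 1 and 24 with at least 3 transcription factor UMIs, 287 with no filter on low counts, 260 with the replicate block, 144 for all nuclei of the cluster, 173 for members in it, 3 of those under 6000 UMIs, 1 without doublets, and 0 without called doublets, without the barcode of most UMIs, with equal numbers of nuclei and in sums per animal with sex as a covariate (193 of 1972 genes at an unadjusted p below 0.05 in the last). Leaving out a library gave 29 to 392: 29 without young 1, 157 without young 2, 392 without old 1 and 311 without old 2. Against the Reln-matched interneurons, 0 calls became 6 without doublets, 81 with no filter, 79 with the replicate block, 131 for nuclei of the cluster, 142 for members in it, 11 for those without doublets, and 0 to 95 with a library left out. Against all other nuclei, 219 became 28, 58, 144 and 5 as given above, and 22 to 324 with a library left out (22 without young 1, 85 without young 2).

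Of the 24 genes named for age over all members, 12 kept and 12 lost their call or side of the threshold with DESeq2, 12 of 23 lost it without young 1, 8 of 11 still tested without doublets and 11 of 16 without the barcode of most UMIs. Fold changes that reversed were those of Hs3st4 (0.42 in all nuclei of the cluster, 0.44 in its members, 0.49 in those without doublets), Tmtc2 (−0.53 with at least 3 transcription factor UMIs) and Lrmda (−0.34 with equal numbers of nuclei). The cause of these changes was not tested. The block is not a pairing by design: same-numbered libraries correlated at 0.0256 in the members, −0.0351 in the cluster and 0.330 in all other nuclei, and the design has 2 pairs only. Old 2 contributes 37259 UMIs in the cluster, so changes of genes below about 80.5 CPM there rest on 3 molecules or fewer.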
